A study of Mus musculus with 24 samples.

Results

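The 9 genes examined here belong to the mitogen-activated protein (MAP) kinase pathway of mouse B cells and comprise the kinase genes Mapk3, Mapk11, Mapk12 and Mapk14 and the phosphatase genes Dusp1, Dusp2, Dusp4, Dusp6 and Dusp10. They were taken by symbol from the 27179 genes of the count tables, and all 9 passed the filter on low counts at every stage. Mapk12 was included because it stood higher in PU.1 cKO than in control, so its values, between stages as well as between genotypes, are given as a description without a test, and the other 8 genes were tested. RNA was sequenced from lymph node B cells of C57BL/6 mice. There were 24 libraries, 2 per genotype and stage, over 4 genotypes and 3 stages. The stages were naive cells, cells cultured for 48 h in CD40L + IL-4, and cells cultured for 48 h in LPS + IL-4. Control mice (Cd23T/+) carried a Cd23-Cre transgene, which is switched on as B cells mature. The mutant called SpiB KO was Spi1fl/fl Cd23+/+ Spib-/-. PU.1 cKO mice were Spi1fl/fl Cd23T/+, and the genotype of PU.1 SpiB DKO mice was Spi1fl/fl Cd23T/+ Spib-/-. SpiB KO was the only genotype without Cre, and the study describes incomplete deletion of Spi1 in naive PU.1 SpiB DKO cells. According to the study's gating, the B cells were sorted as CD3- B220+ CD138-. The age of the mice is not in the labels.

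MAP kinases are the last enzymes of a cascade in which a MAP3 kinase activates a MAP2 kinase and this activates the MAP kinase. Mapk3 encodes ERK1, which acts downstream of RAS and RAF after engagement of the B cell receptor, and Mapk14, Mapk11 and Mapk12 encode the stress-activated kinases p38 alpha, p38 beta and p38 gamma. The dual-specificity phosphatases (DUSPs) remove the activating phosphates from MAP kinases, and many of their genes are themselves induced by MAP kinase signals, which makes them feedback inhibitors. Dusp1, Dusp2 and Dusp4 encode nuclear phosphatases, Dusp6 a cytoplasmic phosphatase that prefers ERK, and Dusp10 one that prefers p38 and JNK. PU.1 (encoded by Spi1) and SpiB are related transcription factors of the ETS family, which recognize DNA around a GGAA core.

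Mapk11 and Mapk12 are neighbours on the minus strand of chromosome 15 (GRCm38, RefSeq), Mapk12 at chr15:89130584-89141577 and Mapk11 at chr15:89142482-89149606, with 904 bases between them. Mapk12 was chosen for its difference, and its neighbour Mapk11 was called in both directions, so the promoter windows of both are shown. Each has 300 bases, from 250 before to 50 after an annotated start (RefSeq, GRCm38.p6, minus strand), and is written from 5′ to 3′ with GGAA or its reverse complement TTCC in capitals. The Mapk12 window is chr15:89140654-89140953, which lies inside the outermost annotated end of the gene, and the Mapk11 window is chr15:89149557-89149856.
Mapk12: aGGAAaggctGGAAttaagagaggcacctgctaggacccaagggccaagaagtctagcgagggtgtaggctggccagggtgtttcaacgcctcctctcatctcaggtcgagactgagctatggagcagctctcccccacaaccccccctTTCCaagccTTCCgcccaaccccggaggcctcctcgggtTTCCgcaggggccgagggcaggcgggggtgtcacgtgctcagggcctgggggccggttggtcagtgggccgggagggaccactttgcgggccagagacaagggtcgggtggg
Mapk11: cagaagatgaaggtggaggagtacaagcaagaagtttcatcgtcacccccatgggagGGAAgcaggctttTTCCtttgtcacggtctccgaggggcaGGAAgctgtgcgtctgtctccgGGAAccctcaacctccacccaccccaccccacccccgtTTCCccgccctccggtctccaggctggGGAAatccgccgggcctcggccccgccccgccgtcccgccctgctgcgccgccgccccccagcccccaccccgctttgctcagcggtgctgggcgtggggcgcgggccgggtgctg

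The Mapk12 window held 5 matches to GGAA over both strands and the Mapk11 window held 6. This core is common, since 96.0% of 32851 promoter windows of the same length held it, with a median of 3 matches, and 28.6% held at least as many as Mapk12. The longer motif GAGGAA, which contains GGAA, was found in 28.3% of the windows and in neither of these. Windows were found for 7 of the 9 genes (8 windows in all), and GAGGAA occurred once each in those of Dusp1 and Dusp6. These matches describe the letters of the windows and say nothing of binding.

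The libraries held 9598674 to 73658850 counts on genes. Levels are given as CPM (a gene's counts scaled to the size of its library) after TMM normalization over the 24 libraries. Spib was at 1416 and 1601 CPM in naive control cells and at 85.4 to 107 CPM in the naive cells of both genotypes with a deleted Spib. Spi1 was at 168.5 and 182 CPM in naive control cells, 57.1 and 63.6 CPM in PU.1 cKO and 108 and 118 CPM in PU.1 SpiB DKO. After CD40L + IL-4 it was at 81.9 and 105.5 CPM in control against 25.1 and 31.7 CPM in PU.1 SpiB DKO. In LPS + IL-4 cultures it was at 60.0 and 69.1 CPM in control against 54.8 and 58.8 CPM in PU.1 SpiB DKO. These are counts over the whole gene, of which the floxed exon is a part, so they check the deletion only in part. From coverage of that exon, the study reports full excision after CD40L + IL-4 and a similarly high efficiency of deletion after LPS + IL-4. Every one of 8 B cell marker genes was above 1 CPM on average in every group. One naive control library (replicate 1) stood apart, with 3.62% of its counts on Rn45s against at most 0.574% in the other 7 naive libraries, and with higher stress genes (Fos at 198 CPM). Member calls and named pathway calls that were lost without it are given both ways. Rn45s also took 6.64% of the counts of the CD40L + IL-4 PU.1 SpiB DKO replicate 1 library and 3.26% of those of the LPS + IL-4 PU.1 cKO replicate 2 library.

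In naive cells Mapk12 was at 58.9 and 66.6 CPM in PU.1 cKO, against 11.3 and 26.3 CPM in control. It was at 15.9 and 18.8 CPM in PU.1 SpiB DKO, and SpiB KO had 11.8 and 12.9 CPM. At this stage only the PU.1 cKO libraries stood above control, with a mean 3.34 times that of control, and those of PU.1 SpiB DKO lay within the range of the control libraries. After CD40L + IL-4 the level was 10.0 and 11.0 CPM in PU.1 cKO and 1.10 and 1.23 CPM in control, a ratio of the means of 9.02. Here the other mutants were not at the control level, since Mapk12 was at 4.29 and 5.05 CPM in PU.1 SpiB DKO and at 1.87 and 3.38 CPM in SpiB KO, all above both control libraries.

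The LPS + IL-4 cultures had the same order. Mapk12 was at 7.12 and 9.18 CPM in the PU.1 cKO libraries, 4.89 and 5.16 CPM in PU.1 SpiB DKO, 1.89 and 2.38 CPM in SpiB KO and 0.871 and 1.21 CPM in control. No library of one genotype overlapped those of another. The mean of PU.1 cKO was 3.61 times that of PU.1 SpiB DKO in naive cells, 2.25 times after CD40L + IL-4 and 1.62 times after LPS + IL-4. The rise in naive cells was thus seen in PU.1 cKO alone. In both cultures it was seen in PU.1 SpiB DKO as well and, at a lower level, in SpiB KO. The study describes incomplete deletion of Spi1 in naive PU.1 SpiB DKO cells. Their Spi1 was at 108 and 118 CPM, against 57.1 and 63.6 CPM in naive PU.1 cKO. Stage and extent of deletion therefore cannot be told apart in the Mapk12 values of PU.1 SpiB DKO. The control values in the cultures rest on few reads, 12 and 13 counts after CD40L + IL-4 and 21 and 68 counts after LPS + IL-4. RefSeq also lists a non-coding gene, Gm46530, over Mapk12, and whether reads were counted by strand is not given in the sources used here, so their reads cannot be told apart.

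**Figure D1:**
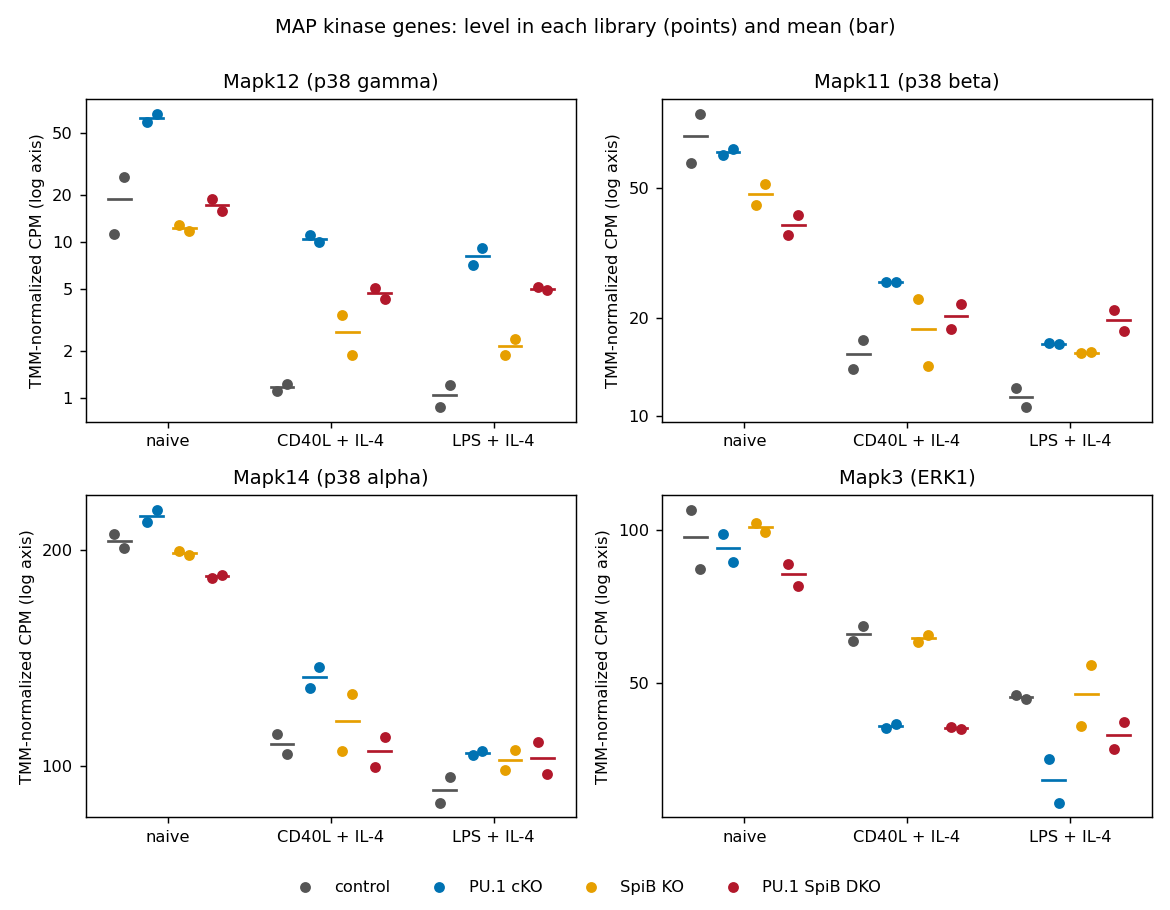
Level of each MAP kinase gene (TMM-normalized CPM, log axis) in the 24 libraries, grouped by stage, with the 4 genotypes in colour, a point for each library and a bar for the mean of 2. The PU.1 cKO libraries have the highest Mapk12 at every stage (58.9 and 66.6 CPM in naive cells), and all 4 genes are lower in both cultures than in naive cells in control.

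The 5 genes whose log2 CPM followed that of Mapk12 most closely over the 24 libraries were sought among 11580 genes tested at all stages. They were Klhl21 (Pearson r = 0.919, Spearman rho = 0.929), Vgll4 (0.913 and 0.910), Cytip (0.912 and 0.929), Neu1 (0.910 and 0.885) and Tmem100 (0.909 and 0.877). Libraries of one stage share their culture, and the difference between naive and cultured cells enters such a likeness. No test is attached. In naive cells Cytip, a gene for a cytohesin-binding protein of lymphocytes, was at 577 and 661 CPM in PU.1 cKO against 468 and 490 CPM in control. After CD40L + IL-4 it was at 238 and 280 CPM in PU.1 cKO against 121 and 136 CPM in control, so its spread among genotypes was much narrower than that of Mapk12. Among the members, the neighbouring Mapk11 was the most like Mapk12 (r = 0.881, rho = 0.910, rank 23 of all genes compared) and Mapk14 followed (r = 0.838, rho = 0.802), while Dusp10 ran against it (r = -0.70, rho = -0.54).

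In naive control cells, on the deposited log2 RPKM scale, which allows levels of different genes to be compared, Dusp2 was the highest member with a mean of 7.78. Mapk3 (5.74), Mapk14 (5.70) and Dusp6 (5.64) came next, and the ranges of their 2 libraries overlapped. Mapk11 (4.86), Dusp4 (4.37) and Dusp1 (4.12) followed, of which Dusp1 ranged from 3.19 to 5.06 and did not differ from either neighbour beyond its spread. Mapk12 (3.235, from 2.66 to 3.81) and Dusp10 (2.40, from 2.24 to 2.55) were the lowest. Among the p38 genes Mapk14 thus had the highest level, Mapk11 was lower and Mapk12 the lowest. In the LPS + IL-4 cultures, whose RPKM values were normalized apart from the other stages, Dusp2 was again the highest (6.22) and Mapk12 the lowest (-0.66), while Dusp10 (4.28) and Dusp4 (4.28) stood side by side.

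Most of the members were lower in cultured than in naive control cells. No culture without a stimulus was among the libraries, so culture and stimulus cannot be told apart. A gene was called here when its Benjamini-Hochberg adjusted p over all genes tested was under 0.15 and its fold change over 1.5. Between naive control cells and CD40L + IL-4 cultures, 7 of the 8 members other than Mapk12 were lower and 1 was higher, against 48.8% of all genes tested called in either direction. Between naive cells and LPS + IL-4 cultures 6 were lower and 1 was higher, against 63.9%. The median log2 fold change of the 8 members was -1.58 and -1.40, against 0 and 0.0064 over all genes. The CD40L + IL-4 libraries were deposited in a separate count table from the naive and LPS + IL-4 libraries. The labels name no processing batch, and a difference in handling between the stages cannot be told apart from stage. In bulk RNA fewer cells of a type and less RNA per cell cannot be told apart.

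Among the kinases, Mapk12 was at 11.3 and 26.3 CPM in naive control cells, at 1.10 and 1.23 CPM after CD40L + IL-4 and at 0.871 and 1.21 CPM after LPS + IL-4. These are the control libraries of the contrast for which it was chosen. Mapk11 fell from 59.7 and 84.2 CPM to 13.97 and 17.1 CPM and to 10.7 and 12.2 CPM (log2 fold change -2.21 ± 0.20 SE, adjusted p = 1.86e-08, and -2.66 ± 0.19, adjusted p = 4.53e-10). The naive libraries of both genes lay far above those of either culture. Mapk14 fell from 201 and 210 CPM to 104 and 111 CPM and to 88.8 and 96.5 CPM (-0.94 ± 0.11, adjusted p = 6.29e-07, and -1.15 ± 0.11, adjusted p = 1.59e-08). Mapk3 fell from 83.7 and 109 CPM to 60.2 and 64.7 CPM after CD40L + IL-4 (-0.63 ± 0.15, adjusted p = 0.00118) and to 46.35 and 47.2 CPM after LPS + IL-4 (-1.05 ± 0.14, adjusted p = 2.56e-06). The decline of both genes was thus smaller than that of Mapk11. The Mapk3 call after CD40L + IL-4 fell under the fold threshold without naive control replicate 1 (-0.42, adjusted p = 0.0369) or without CD40L + IL-4 control replicate 1 (-0.58, adjusted p = 0.0167).

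Among the phosphatases, the ERK phosphatase gene Dusp6 fell from 130 and 157 CPM in naive control cells to 25.1 and 25.6 CPM after CD40L + IL-4 (-2.50 ± 0.19, adjusted p = 1.26e-09). After LPS + IL-4 it fell to 7.38 and 11.7 CPM (-3.94 ± 0.19, adjusted p = 2.21e-12). Dusp1 fell from 17.1 and 64.2 CPM to 5.33 and 6.27 CPM (-2.80 ± 0.54, adjusted p = 0.000225) and to 1.71 and 1.78 CPM (-4.54 ± 0.57, adjusted p = 7.90e-07). Its naive control libraries differed widely, and without naive control replicate 1 the falls were -1.56 and -3.29 on the log2 scale, both still called. Dusp2 fell from 338 and 407 CPM to 66.7 and 76.0 CPM (-2.38 ± 0.16, adjusted p = 3.32e-10) and to 114.5 and 124 CPM (-1.65 ± 0.16, adjusted p = 1.57e-08). Dusp10 went the other way, from 12.0 and 15.2 CPM to 65.6 and 66.3 CPM after CD40L + IL-4 (2.27 ± 0.20, adjusted p = 1.05e-08) and to 43.3 and 59.0 CPM after LPS + IL-4 (1.90 ± 0.19, adjusted p = 3.92e-08). It was the only member that rose.

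Dusp4 gave no stable difference between stages in control. It was at 46.7 and 53.5 CPM in naive cells, 17.3 and 48.8 CPM after CD40L + IL-4 and 40.7 and 50.9 CPM after LPS + IL-4, and the libraries of the stages overlapped. It passed the thresholds only against CD40L + IL-4 (-0.59 ± 0.31, adjusted p = 0.122), where 1 control culture was low. The call was lost without that library, CD40L + IL-4 control replicate 2 (-0.04, adjusted p = 0.926), or without naive control replicate 1 (-0.49, adjusted p = 0.317). Between the cultures, 41.2% of all genes were called and 3 of the 8 members were. Dusp2 was higher after LPS + IL-4 than after CD40L + IL-4 (0.74 ± 0.15, adjusted p = 0.000644), and Dusp1 (-1.74 ± 0.58, adjusted p = 0.0189) and Dusp6 (-1.43 ± 0.19, adjusted p = 5.39e-06) were lower.

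**Figure D2:**
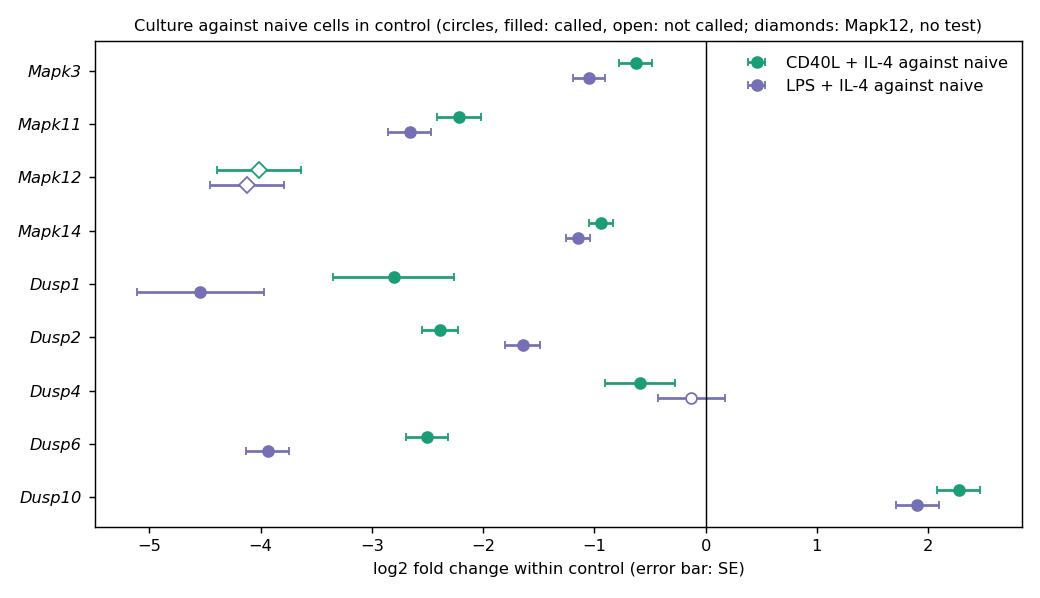
Log2 fold change of each member in control, CD40L + IL-4 (green) and LPS + IL-4 (purple) against naive cells, with its standard error, filled where called, open where not, and as an open diamond for Mapk12, which has no test. Every member but Dusp10 lies left of 0, from -0.13 for Dusp4 after LPS + IL-4 to -4.54 for Dusp1 after LPS + IL-4, and Dusp10 lies at 2.27 and 1.90.

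The genotypes were then compared with control at each stage, over the 8 members other than Mapk12. In naive cells, the members called lower were 2 in PU.1 cKO (Dusp1 and Dusp4), 1 in SpiB KO (Mapk11) and 3 in PU.1 SpiB DKO (Mapk11, Dusp1 and Dusp4). None was called higher. Of all genes tested, 10.7%, 9.62% and 21.2% were called in these contrasts. The medians of the members were -0.40, -0.49 and -0.48 on the log2 scale, against -0.013, 0.013 and 0.0022 over all genes. After CD40L + IL-4, Mapk11 was higher and Mapk3 and Dusp6 were lower in PU.1 cKO, and Mapk3 was lower in PU.1 SpiB DKO. No member was called in SpiB KO, where 2 of the 8 had an unadjusted p under 0.05 by edgeR and DESeq2 and voom also called 0. The shares over all genes were 13.5% for PU.1 cKO, 18.3% for PU.1 SpiB DKO and 0.134% for SpiB KO. After LPS + IL-4, Dusp1 was higher in PU.1 cKO (10.5% of all genes called), Dusp4 in SpiB KO (3.19%) and Mapk11, Dusp1 and Dusp6 in PU.1 SpiB DKO (20.2%), and none was lower. With only 8 genes, such counts are too few to be weighed against these shares, and the account therefore goes by single genes. The comparisons of a stage share their 2 control libraries.

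Mapk11 was lower than in control in naive SpiB KO and PU.1 SpiB DKO cells, and higher in CD40L-activated PU.1 cKO and LPS-activated PU.1 SpiB DKO cells. In naive cells it was at 59.7 and 84.2 CPM in control and 63.2 and 66.0 CPM in PU.1 cKO. SpiB KO had 44.2 and 51.3 CPM, and PU.1 SpiB DKO had 35.8 and 41.2 CPM. The libraries of both genotypes with a deleted Spib lay under those of the other genotypes. The difference was -0.90 ± 0.18 on the log2 scale in PU.1 SpiB DKO (adjusted p = 0.00786) and passed the threshold narrowly in SpiB KO (-0.60 ± 0.18, adjusted p = 0.0929). PU.1 SpiB DKO was also lower than PU.1 cKO (-0.73 ± 0.18, adjusted p = 0.0292). The SpiB KO call was lost without control replicate 2 (-0.29, adjusted p = 0.470), SpiB KO replicate 1 (-0.49, adjusted p = 0.471) or SpiB KO replicate 2 (-0.71, adjusted p = 0.181). The call against PU.1 cKO was lost without PU.1 cKO replicate 2 (adjusted p = 0.161) or PU.1 SpiB DKO replicate 1 (adjusted p = 0.171). The call in PU.1 SpiB DKO against control was kept without any 1 of its 4 libraries.

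Naive cells of these genotypes also had more RNA of genes that mark other cell types. All 5 plasmacytoid dendritic cell markers were called higher in SpiB KO and also in PU.1 SpiB DKO, with summed levels of 959 to 1178 and 1250 to 1311 CPM against 191.5 to 298.9 CPM in control and 224 to 243 CPM in PU.1 cKO. Of 7 T cell markers tested, 4 and 5 were called higher, with sums of 349.5 to 418 and 517 to 538 CPM against 67.8 to 104 CPM in control. Cd8a was at 187 and 246 CPM in SpiB KO and 249 and 280 CPM in PU.1 SpiB DKO, against 2.45 and 13.0 CPM in control. The T cell receptor component Cd3e was at or under 0.675 CPM in every naive library. Of 5 macrophage markers tested, 1 and 3 were called higher (sums of 54.5 to 67.9 and 76.4 to 76.9 CPM against 14.1 to 27.2 CPM). Cd68 was at 39.2 and 52.4 CPM in SpiB KO and 56.2 and 58.3 CPM in PU.1 SpiB DKO, against 6.02 and 12.3 CPM in control. Mertk was at 0 counts in these 3 genotypes. Of all genes, 9.62% were called in naive SpiB KO and 21.2% in naive PU.1 SpiB DKO. The part of these marker genes in the lower Mapk11 was not tested.

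In the cultures the order of Mapk11 turned. After CD40L + IL-4 it was at 25.8 and 25.9 CPM in the PU.1 cKO libraries, 18.5 and 22.1 CPM in PU.1 SpiB DKO, 14.2 and 22.8 CPM in SpiB KO and 13.97 and 17.1 CPM in control. It was higher in PU.1 cKO (0.71 ± 0.23, adjusted p = 0.0842). This call was lost without any 1 of the 4 libraries (adjusted p = 0.301 without control replicate 1, 0.155 without control replicate 2, and 0.190 and 0.272 without PU.1 cKO replicates 1 and 2). After LPS + IL-4 it was at 18.3 and 21.1 CPM in PU.1 SpiB DKO and 16.6 and 16.8 CPM in PU.1 cKO. SpiB KO had 15.6 and 15.7 CPM, and control had 10.7 and 12.2 CPM. Every mutant library lay above both control libraries, and the difference was called in PU.1 SpiB DKO (0.86 ± 0.13, adjusted p = 0.000954), also without each library in turn. The differences in PU.1 cKO (0.57 ± 0.13, adjusted p = 0.0175) and SpiB KO (0.46 ± 0.13, adjusted p = 0.120) stayed under a fold of 1.5.

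Mapk3 and Mapk14 differed less. In naive cells Mapk3 ranged from 77.6 to 109 CPM over all genotypes with no call. After CD40L + IL-4 it was at 40.6 and 41.5 CPM in PU.1 cKO and 40.6 and 41.0 CPM in PU.1 SpiB DKO, against 60.2 and 64.7 CPM in control and 60.1 and 62.1 CPM in SpiB KO. The libraries of both genotypes with floxed Spi1 and Cre thus lay under those of the others, and the difference from control was -0.63 ± 0.14 (adjusted p = 0.0186) in PU.1 cKO and -0.62 ± 0.14 (adjusted p = 0.0150) in PU.1 SpiB DKO. These folds of 1.54 are close to the threshold. Without CD40L + IL-4 control replicate 2 both fell just under it (-0.58 in each, adjusted p = 0.0854 and 0.0552), and without PU.1 cKO replicate 2 the adjusted p for PU.1 cKO was 0.158. After LPS + IL-4 Mapk3 was at 29.0 and 35.4 CPM in PU.1 cKO against 46.35 and 47.2 CPM in control, which passed the adjusted p but not the fold (-0.52 ± 0.14, adjusted p = 0.0482). Mapk14 was called in no contrast between genotypes, with log2 fold changes against control from -0.16 to 0.28. In the CD40L + IL-4 cultures, 5 plasma cell markers summed to 1809 to 2045 CPM in PU.1 cKO (3 called higher), 2283 to 2535 CPM in PU.1 SpiB DKO (5 called higher) and 1182 to 1389 CPM in control. The 8 B cell markers summed to 5257 to 5584 CPM in PU.1 cKO (3 called lower), 4035 to 4965 CPM in PU.1 SpiB DKO (4 called lower) and 6504 to 8170 CPM in control. Of all genes, 13.5% were called in PU.1 cKO and 18.3% in PU.1 SpiB DKO at this stage. No marker of either list was at 0 in any group. The part of these genes in the Mapk3, Mapk11 and Dusp6 differences of this stage was not tested.

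Dusp1, an early-response phosphatase gene, was lower than control in naive cells of PU.1 SpiB DKO and of PU.1 cKO and higher in the same genotypes after LPS + IL-4. In naive cells it was at 17.1 and 64.2 CPM in control and 6.09 and 12.6 CPM in PU.1 cKO. SpiB KO had 6.26 and 21.6 CPM, and PU.1 SpiB DKO had 4.67 and 9.52 CPM. In all 4 genotypes the library numbered 1 was the higher, and Fos had the same feature. The Fos level was 198 against 41.0 CPM in control, 25.1 against 12.8 CPM in PU.1 cKO, 92.7 against 16.5 CPM in SpiB KO and 32.3 against 16.5 CPM in PU.1 SpiB DKO. Dusp1 was lower in PU.1 cKO (-2.11 ± 0.69, adjusted p = 0.102) and in PU.1 SpiB DKO (-2.50 ± 0.70, adjusted p = 0.0344). Without naive control replicate 1 neither was called (-0.90, adjusted p = 0.390, and -1.31, adjusted p = 0.172), and the call in PU.1 cKO was also lost without PU.1 cKO replicate 1 or 2 (adjusted p = 0.237 and 0.352). Of 14 genes of handling and heat stress, 12 were called lower in naive PU.1 SpiB DKO, against 21.2% of all genes called in either direction. In SpiB KO 2 were called lower (9.62% of all genes) and in PU.1 cKO 7 (10.7%). All these counts include naive control replicate 1, the library with higher stress genes. The summed levels of the 14 genes were 2233 and 1675 CPM in control replicates 1 and 2. They were 1184 to 1250 CPM in PU.1 cKO, 1266 to 1687 CPM in SpiB KO and 896 to 1090 CPM in PU.1 SpiB DKO. Their part in the Dusp1 difference was not tested.

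In the LPS + IL-4 cultures Dusp1 was at 3.33 and 3.58 CPM in the PU.1 cKO libraries, 3.67 and 4.47 CPM in PU.1 SpiB DKO, 2.42 and 2.43 CPM in SpiB KO and 1.71 and 1.78 CPM in control. Every mutant library lay above control. It was higher in PU.1 cKO (1.01 ± 0.20, adjusted p = 0.0108) and in PU.1 SpiB DKO (1.30 ± 0.21, adjusted p = 0.00137), and both calls were kept without each library in turn. PU.1 SpiB DKO was also above SpiB KO (0.82 ± 0.20, adjusted p = 0.0206), except without PU.1 SpiB DKO replicate 1 (0.65, adjusted p = 0.167). Of the 12 stress genes tested at this stage, 5 were called higher and 3 lower in PU.1 SpiB DKO (20.2% of all genes called). The sum of the 14 listed genes was 933 and 1004 CPM there against 1062 and 1279 CPM in control. The sum of 5 plasma cell markers was 1504 to 1518 CPM in PU.1 SpiB DKO, 1145 to 1258 CPM in PU.1 cKO, 724 to 784 CPM in SpiB KO and 634 to 704 CPM in control. Of these 5 genes, 4 were called higher in PU.1 SpiB DKO and 4 in PU.1 cKO, 1 was called higher in SpiB KO, and none was at 0 in any group. The order of the genotypes in the sum was also the order of mean Dusp1 and Mapk11. Most of the sum came from Xbp1 (975 and 1011 CPM in PU.1 SpiB DKO) and Irf4 (449 and 434 CPM). Sdc1, also among the 5, did not follow that order. It was at 7.61 and 7.08 CPM in PU.1 SpiB DKO, against 8.21 and 7.50 CPM in control. PU.1 cKO had 7.61 and 7.50 CPM of Sdc1, and SpiB KO had 5.46 and 5.19 CPM. The part of the plasma cell genes was not tested. After CD40L + IL-4 Dusp1 was called only between PU.1 SpiB DKO (7.75 and 8.32 CPM) and SpiB KO (4.00 and 4.93 CPM), with 0.85 ± 0.26 and adjusted p = 0.0651. This was lost without any 1 of these 4 libraries (adjusted p from 0.155 to 0.217).

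Dusp4 was lower in naive cells of both genotypes with floxed Spi1 and Cre, although Spi1 RNA was only partly lower in the double mutant. It was at 18.3 and 19.3 CPM in PU.1 cKO and 13.6 and 22.6 CPM in PU.1 SpiB DKO, against 46.7 and 53.5 CPM in control and 32.4 and 36.3 CPM in SpiB KO. The libraries of these genotypes lay under all others, and SpiB KO lay between them and control. Dusp4 was 2.67-fold lower in PU.1 cKO (-1.42 ± 0.21, adjusted p = 0.00446) and 2.74-fold lower in PU.1 SpiB DKO (-1.46 ± 0.21, adjusted p = 0.00136), and both calls held without each library in turn. It was also lower in PU.1 SpiB DKO than in SpiB KO (-0.92 ± 0.21, adjusted p = 0.0659). This call was lost without SpiB KO replicate 1 (adjusted p = 0.243), SpiB KO replicate 2 (0.343) or PU.1 SpiB DKO replicate 1 (0.262). Stress genes given for Dusp1 were called lower in the same contrasts, with naive control replicate 1 included. Their part in the Dusp4 difference was not tested.

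The lower Dusp4 of naive cells was not seen after activation. After CD40L + IL-4 the control libraries, at 17.3 and 48.8 CPM, were too far apart for a comparison, and PU.1 cKO stood at 54.0 and 57.7 CPM (0.72 ± 0.38, adjusted p = 0.294). After LPS + IL-4 Dusp4 was at 40.7 and 50.9 CPM in control, 66.1 and 67.3 CPM in PU.1 cKO and 59.9 and 66.7 CPM in PU.1 SpiB DKO, and SpiB KO had 68.96 and 79.9 CPM. Every mutant library was above control. The difference was called in SpiB KO (0.70 ± 0.11, adjusted p = 0.0140), where it fell just under the fold threshold without control replicate 1 (0.58, adjusted p = 0.0360). In PU.1 cKO (0.56 ± 0.11, adjusted p = 0.00991) and PU.1 SpiB DKO (0.54 ± 0.11, adjusted p = 0.00552) it passed the adjusted p and stayed under a fold of 1.5.

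Dusp6 and Dusp2 were somewhat lower in the naive mutants, with no call. Dusp6 was at 130 and 157 CPM in naive control cells, 98.3 and 111 CPM in PU.1 cKO and 98.7 and 106 CPM in PU.1 SpiB DKO, and SpiB KO had 116 and 125 CPM. Dusp2 was at 338 and 407 CPM in control and between 243 and 280 CPM in the 6 mutant libraries, with folds of 1.37 to 1.45 and adjusted p of 0.0194 in PU.1 SpiB DKO, 0.0308 in SpiB KO and 0.04998 in PU.1 cKO. All mutant libraries of both genes were under those of control, by less than the fold required. After CD40L + IL-4 Dusp6 was at 11.9 and 14.7 CPM in the PU.1 cKO libraries, 20.3 and 22.6 CPM in PU.1 SpiB DKO and 25.1 and 25.6 CPM in control. SpiB KO had 14.99 and 20.1 CPM. PU.1 cKO was lower than control (-0.94 ± 0.20, adjusted p = 0.0137), also without each library in turn. PU.1 SpiB DKO lay above PU.1 cKO (0.69 ± 0.20, adjusted p = 0.130), and this call was lost without any 1 of the 4 libraries (adjusted p from 0.210 to 0.589). After LPS + IL-4, Dusp6 was at 13.2 and 13.9 CPM in PU.1 SpiB DKO against 7.38 and 11.7 CPM in control and 8.52 and 9.69 CPM in SpiB KO. Its call there against control was narrow, 0.59 ± 0.21 (adjusted p = 0.0555), and was lost without control replicate 2 (0.26, adjusted p = 0.326) or PU.1 SpiB DKO replicate 1 (0.55, adjusted p = 0.181). Against SpiB KO the difference was 0.63 ± 0.21 (adjusted p = 0.0673), lost without SpiB KO replicate 1 (0.72, adjusted p = 0.159), SpiB KO replicate 2 (0.55, adjusted p = 0.251) or PU.1 SpiB DKO replicate 1 (0.58, adjusted p = 0.231). RefSeq lists a non-coding gene, Gm34921, that overlaps Dusp6, and Gm4356, a pseudogene, that overlaps Mapk14.

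After CD40L + IL-4, Dusp2 was at 97.5 and 110 CPM in PU.1 SpiB DKO, above control (66.7 and 76.0 CPM), PU.1 cKO (71.7 and 75.7 CPM) and SpiB KO (52.7 and 75.2 CPM). The difference was called against SpiB KO (0.71 ± 0.18, adjusted p = 0.0348) except without SpiB KO replicate 2 (0.47, adjusted p = 0.157), and against control it stayed under the fold (0.53 ± 0.18, adjusted p = 0.0822). Dusp10 was called in no contrast between genotypes, although after LPS + IL-4 it was at 65.1 and 70.4 CPM in PU.1 SpiB DKO against 43.3 and 59.0 CPM in control (0.48 ± 0.17, adjusted p = 0.0527).

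**Figure D3:**
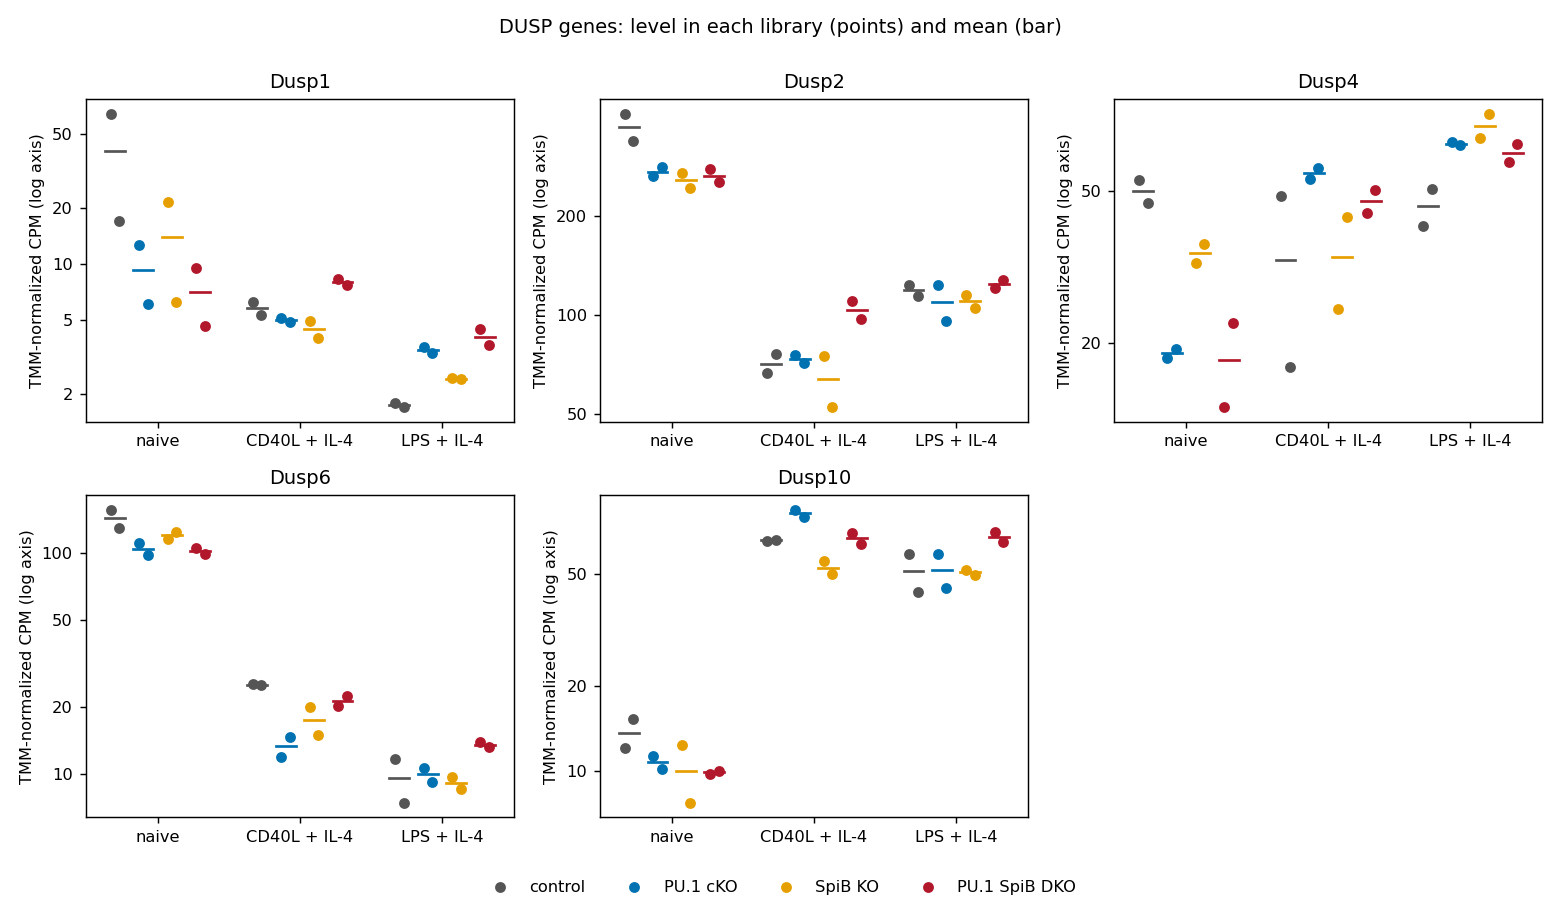
Level of each DUSP gene (TMM-normalized CPM, log axis) in the 24 libraries, grouped by stage, with the 4 genotypes in colour, a point for each library and a bar for the mean of 2. In naive cells Dusp4 is lowest in PU.1 SpiB DKO and in PU.1 cKO (13.6 to 22.6 CPM), the naive control libraries of Dusp1 lie far apart (17.1 and 64.2 CPM), and Dusp10 is higher in both cultures than in naive cells.

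**Figure D4:**
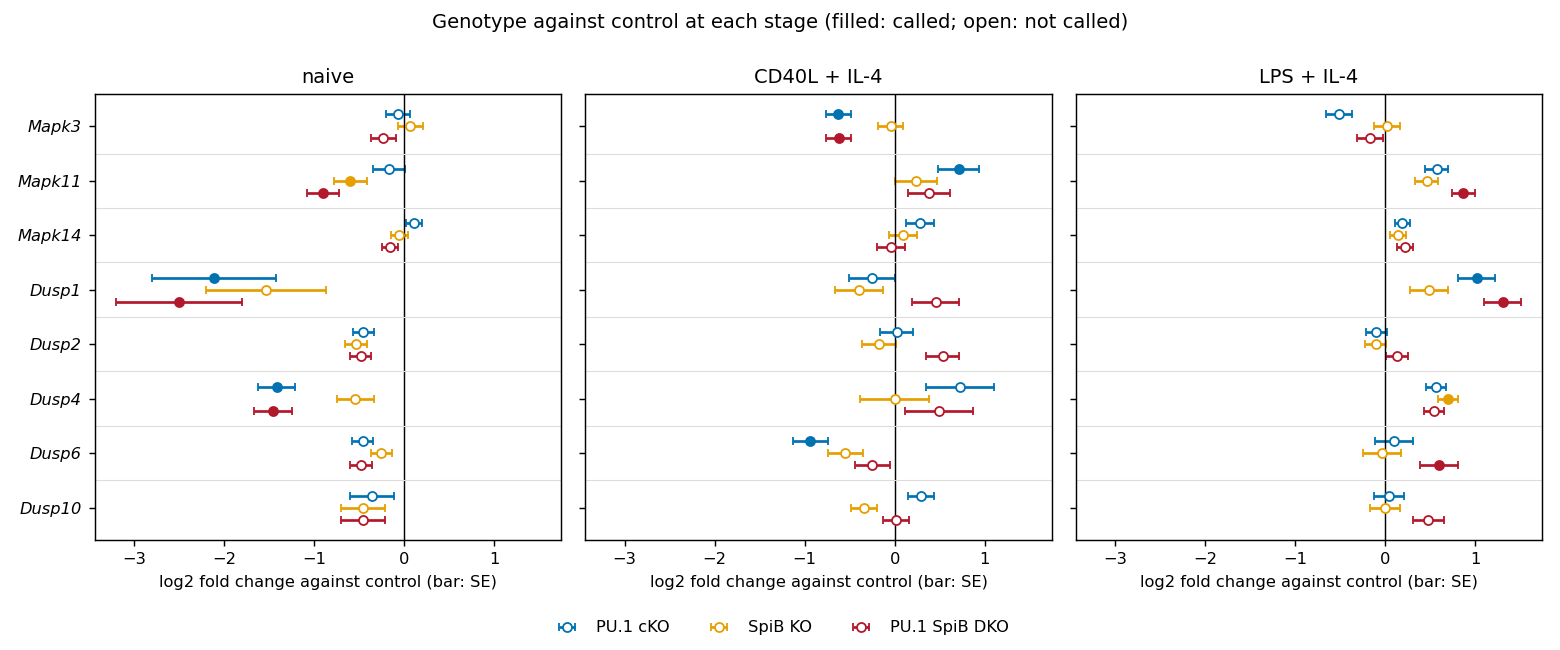
Log2 fold change against control with its standard error for 8 members (all but Mapk12), one panel for each stage and one colour for each genotype, filled where called and open where not. In naive cells Dusp1 and Dusp4 lie left of 0 in every mutant, down to -2.50, and after LPS + IL-4 Mapk11, Dusp1 and Dusp4 lie right of 0 in every mutant, up to 1.30.

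Whether the loss of both factors did more than either loss was asked first by setting PU.1 SpiB DKO against each single mutant. The study describes incomplete deletion of Spi1 in naive PU.1 SpiB DKO cells. The naive contrasts therefore do not set a full loss of both factors against a single loss. Against PU.1 cKO, 1 member was called in naive cells (Mapk11, 12.9% of all genes), 1 after CD40L + IL-4 (Dusp6, 4.06%) and 0 after LPS + IL-4 (12.6%), where DESeq2 and voom also called 0. In the last of these contrasts, 4 of the 8 had an unadjusted p under 0.05 by edgeR and passed the adjusted p at folds under 1.5. Those 4 were Mapk3, Mapk11, Dusp6 and Dusp10, all higher in PU.1 SpiB DKO (0.29 to 0.50 on the log2 scale, adjusted p from 0.0928 to 0.124). Against SpiB KO, 1 member was called in naive cells (Dusp4, 3.05%), 2 after CD40L + IL-4 (Dusp1 and Dusp2, 15.3%) and 2 after LPS + IL-4 (Dusp1 and Dusp6, 12.8%).

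The interaction of the losses asks whether the double mutant departs from the sum of the single effects on the log2 scale. Since SpiB KO alone lacked Cre, an effect of Cre enters this contrast and cannot be told apart from an interaction. The same holds for every comparison of SpiB KO with another genotype. In naive cells the incomplete deletion of Spi1 in PU.1 SpiB DKO enters the interaction as well. The naive interaction therefore cannot answer for a full loss of both factors. None of the 8 members was called for the interaction in naive cells, 1 was called after CD40L + IL-4 (Dusp6) and 1 after LPS + IL-4 (Dusp4), against 0.936%, 1.17% and 1.48% of all genes. In naive cells 1 of the 8 (Dusp2) had an unadjusted p under 0.05 by edgeR, and DESeq2 and voom, also without a replicate block, called 0. For Dusp6 the interaction was 1.24 ± 0.28 (adjusted p = 0.125), with differences from control of -0.55 in SpiB KO, -0.94 in PU.1 cKO and -0.25 in PU.1 SpiB DKO. For Dusp4 it was -0.73 ± 0.16 (adjusted p = 0.110), with differences from control of 0.70, 0.56 and 0.54 in the same order. Without 1 library the Dusp6 interaction was lost in 6 of 8 cases (adjusted p up to 0.359) and the Dusp4 interaction in 7 of 8 (up to 0.326). With the replicate number as a block, which pairs the LPS + IL-4 libraries, the Dusp4 interaction had adjusted p = 0.00625, and Dusp10 was called as well (adjusted p = 0.121).

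The effects of genotype were next compared between stages, in a fit of all 24 libraries. For PU.1 SpiB DKO against control, 6 of 8 members differed between LPS + IL-4 and naive cells (29.6% of all genes) and 4 of 8 between CD40L + IL-4 and naive cells (16.8%), and all these differences were positive. The study describes incomplete deletion of Spi1 in naive PU.1 SpiB DKO cells and efficient deletion in the cultures. Stage and extent of deletion therefore cannot be told apart in these differences. The medians over the 8 members were 0.95 and 0.76, against -0.049 and 0.0007 over all genes. Mapk11 moved from a fall in naive cells to a rise after LPS + IL-4, a difference of effects of 1.69 ± 0.26 (adjusted p = 0.000206). Dusp1 did likewise (3.75 ± 0.75, adjusted p = 0.00209), and the difference for Dusp4 was in the same direction (1.93 ± 0.44, adjusted p = 0.00520). Between the cultures 2 members differed (28.6% of all genes), Dusp6 with 0.77 ± 0.26 (adjusted p = 0.0538) and Dusp2 with -0.48 ± 0.22 (adjusted p = 0.141).

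For PU.1 cKO, 2 members differed between CD40L + IL-4 and naive cells (8.98% of all genes), 2 between LPS + IL-4 and naive cells (6.34%) and 1 between the cultures (3.09%). Dusp4 differed from its naive effect in both cultures, by 2.16 ± 0.45 (adjusted p = 0.00855) and 1.95 ± 0.44 (adjusted p = 0.0211), also without each library in turn. For SpiB KO the counts were 0 of 8 (2.15% of all genes), 1 of 8 (Mapk11, 1.05 ± 0.26, adjusted p = 0.0446, against 5.65%) and 0 of 8. Of the 8 members, 1, 3 and 0 had an unadjusted p under 0.05 in these 3 contrasts, and in the first of them, without a replicate block, DESeq2 called 1 member and voom 0. In the last of them, LPS + IL-4 against CD40L + IL-4, edgeR called no gene at all (0%), 421 genes had an unadjusted p under 0.05, and DESeq2 called 3 and voom 0.

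The wider pathway was followed with 84 genes in 10 lists, of which 72 were tested at each stage. In naive cells 4 of these were higher and 11 lower in PU.1 SpiB DKO (20.8%, against 21.2% of all genes), 1 higher and 10 lower in PU.1 cKO (15.3%, against 10.7%) and 3 higher and 4 lower in SpiB KO (9.72%, against 9.62%). After CD40L + IL-4 the numbers were 7 higher and 7 lower, 5 higher and 6 lower, and 0 in the same order (19.4%, 15.3% and 0% of the 72, against 18.3%, 13.5% and 0.134% of all genes). After LPS + IL-4 they were 9 higher and 3 lower, 4 higher and 1 lower, and 2 higher and 0 lower (16.7%, 6.94% and 2.78%, against 20.2%, 10.5% and 3.19%). In SpiB KO after CD40L + IL-4, 2 of the 72 had an unadjusted p under 0.05 by edgeR, and DESeq2 and voom called 0. The medians over the 72 genes in PU.1 SpiB DKO were -0.050, -0.17 and 0.076 on the log2 scale. Of the 30 results for single pathway genes in PU.1 SpiB DKO given next, 17 were kept without each library in turn and 13 were lost without at least 1. Those lost were Map3k11, Dusp7, Dusp3 and Fos in naive cells, Rps6ka2, Rps6ka5, Dusp5, Spry2, Spred2 and Myc after CD40L + IL-4, and Map3k1, Spry2 and Spry4 after LPS + IL-4. All 30 were picked by their call in PU.1 SpiB DKO, and some were shared with a single mutant. Values of the single mutants are given beside some of them, without leaving out libraries.

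Upstream of the kinases, RAS and its exchange factors had 2 of 9 genes called higher and 3 called lower in PU.1 SpiB DKO after CD40L + IL-4 (18.3% of all genes called). Rasgrp3, which couples diacylglycerol to RAS in B cells, was at 67.5 and 88.7 CPM in PU.1 SpiB DKO against 216 and 276 CPM in control (-1.67 ± 0.18, adjusted p = 0.000203). It was lower in PU.1 cKO too (-1.84, adjusted p = 0.000159). Hras1 was at 63.3 and 71.96 CPM against 32.2 and 36.9 CPM (0.96 ± 0.19, adjusted p = 0.00768), and was higher in PU.1 cKO too (0.63, adjusted p = 0.0672). After LPS + IL-4, Rasgrp2 was at 146 and 161 CPM against 48.1 and 66.1 CPM (1.497 ± 0.15, adjusted p = 8.91e-05). PU.1 cKO (0.69, adjusted p = 0.0141) and SpiB KO (0.64, adjusted p = 0.064) also had higher Rasgrp2. In naive cells Rasgrp4 was at 2.33 and 3.09 CPM against 5.41 and 7.06 CPM (-1.19 ± 0.28, adjusted p = 0.0160). Its fall in naive PU.1 cKO was -1.60 (adjusted p = 0.0113).

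Of the MAP3 kinases, Map3k11 was lower in naive PU.1 SpiB DKO (57.6 and 70.0 against 94.3 and 136 CPM). It was lower in naive SpiB KO too (-0.60, adjusted p = 0.110). In PU.1 SpiB DKO, Map3k2 was lower after CD40L + IL-4 (36.7 and 43.5 against 63.3 and 79.5 CPM) and Map3k1 was higher after LPS + IL-4 (146 and 157 against 68.7 and 107 CPM). The MAP2 kinases gave 1 call in all comparisons with control, Map2k1, which activates ERK, at 133 CPM in both PU.1 SpiB DKO libraries against 237 and 240 CPM in control after LPS + IL-4 (-0.77 ± 0.07, adjusted p = 5.75e-05). Of the other MAP kinases, Mapk6, an atypical kinase, was the only one called in PU.1 SpiB DKO, higher after CD40L + IL-4 (153 and 157 against 83.4 and 92.8 CPM). Its log2 fold change was 0.80 (adjusted p = 0.019) there and 1.07 (adjusted p = 0.00583) in PU.1 cKO.

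Downstream and among the inhibitors, the ribosomal S6 kinase gene Rps6ka1 rose in naive PU.1 SpiB DKO from 135 and 158 to 264 and 288 CPM (0.92 ± 0.11, adjusted p = 0.000433). Naive SpiB KO had a rise of Rps6ka1 as well (0.78, adjusted p = 0.00269). In PU.1 cKO the difference was -0.45 (adjusted p = 0.0401), under a fold of 1.5. In PU.1 SpiB DKO, Rps6ka2 rose after LPS + IL-4 from 2.92 and 3.32 to 7.13 and 7.77 CPM (1.34 ± 0.19, adjusted p = 0.000696). Rps6ka5 fell in naive PU.1 SpiB DKO from 40.9 and 47.4 to 26.8 and 27.4 CPM. It was lower in naive PU.1 cKO too (-0.65, adjusted p = 0.0242). After CD40L + IL-4, in PU.1 SpiB DKO, Rps6ka2 was higher (8.003 and 8.59 against 4.30 and 6.01 CPM, adjusted p = 0.124) and Rps6ka5 lower (7.56 and 9.37 against 12.4 and 14.5 CPM, adjusted p = 0.0619). Among the other DUSP genes for MAP kinases, Dusp9 rose in naive PU.1 SpiB DKO from 0.892 and 2.67 to 8.74 and 9.11 CPM (2.34 ± 0.38, adjusted p = 0.00249) and likewise in SpiB KO (2.06, adjusted p = 0.0129). It was not called in naive PU.1 cKO (-0.57, adjusted p = 0.48). The plasmacytoid dendritic cell markers were higher in the same genotypes, and the part of such genes in the Dusp9 difference was not tested. Dusp7 fell in naive PU.1 SpiB DKO from 72.9 and 110 to 52.5 and 63.8 CPM. The ERK phosphatase gene Dusp5 rose in PU.1 SpiB DKO after CD40L + IL-4 (from 16.4 and 19.0 to 25.6 and 36.4 CPM) and after LPS + IL-4 (from 6.92 and 7.06 to 17.8 and 18.0 CPM, 1.43 ± 0.13, adjusted p = 5.75e-05). Dusp5 was higher in PU.1 cKO too after CD40L + IL-4 (0.74, adjusted p = 0.0778). Of the atypical DUSP genes, Dusp3 fell in naive PU.1 SpiB DKO (from 23.8 and 33.4 to 15.3 and 15.7 CPM). After LPS + IL-4, in PU.1 SpiB DKO, Dusp14 rose (from 0.995 and 1.16 to 2.09 and 2.88 CPM) and Dusp12 fell (from 28.6 and 37.1 to 17.4 and 19.4 CPM). Dusp14 was higher in PU.1 cKO too at that stage (1.03, adjusted p = 0.032). Spry1, which encodes an inhibitor of RAS signalling, had the largest fold among the pathway genes named here, from 0.372 and 0.914 to 6.80 and 8.27 CPM in naive PU.1 SpiB DKO (3.55 ± 0.40, adjusted p = 0.000364). It also rose in PU.1 cKO (1.33, adjusted p = 0.109) and SpiB KO (1.37, adjusted p = 0.114). Spry2 had low levels, and in PU.1 SpiB DKO it was at 1.26 and 2.05 against 0.424 and 0.512 CPM after CD40L + IL-4 (1.815 ± 0.62, adjusted p = 0.0808). After LPS + IL-4 Spry2 was at 1.01 and 1.16 against 0.178 and 0.456 CPM (2.01 ± 0.53, adjusted p = 0.0165), and Spry4 at 0.978 and 1.26 against 1.66 and 2.13 CPM (-0.69 ± 0.30, adjusted p = 0.104). Spred2, of the same list, fell in PU.1 SpiB DKO after CD40L + IL-4 from 10.2 and 20.2 to 4.53 and 6.63 CPM (-1.46 ± 0.35, adjusted p = 0.0201). It was lower in PU.1 cKO too (-1.325, adjusted p = 0.033).

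Among the genes of transcription factors that answer to MAP kinases, Fos was lower in naive PU.1 SpiB DKO (-2.26 ± 0.83, adjusted p = 0.0842), a difference that was -0.78 (adjusted p = 0.496) without naive control replicate 1, the library with high stress genes. After LPS + IL-4 it was higher in PU.1 SpiB DKO, at 2.43 and 4.81 CPM against 0.782 and 0.995 CPM (2.14 ± 0.37, adjusted p = 0.00239), so Fos and Dusp1 had the same directions at both stages. Myc was higher in PU.1 SpiB DKO after CD40L + IL-4 (137 and 170 against 82.9 and 95.5 CPM, 0.77 ± 0.22, adjusted p = 0.0386). In PU.1 cKO its rise was 0.95 (adjusted p = 0.0212). Of the scaffolds, Mapk8ip3 was the only one called in PU.1 SpiB DKO, lower in naive cells (9.65 and 10.3 against 15.7 and 28.03 CPM, -1.13 ± 0.27, adjusted p = 0.0170). Naive PU.1 cKO (-1.17, adjusted p = 0.0327) and SpiB KO (-1.145, adjusted p = 0.0394) had lower Mapk8ip3 as well.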

How the data were processed

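RNA-seq libraries of 24 samples, 2 for each of 4 genotypes at 3 stages, were analysed from 2 tables of raw counts deposited by the authors, who aligned reads to mm10 with Subread and counted uniquely mapped reads over RefSeq exons with featureCounts. The deposited log2 RPKM values, which the authors made with voom and quantile normalization (naive and CD40L + IL-4 together, LPS + IL-4 apart), were used only to rank genes within control. Counts were tested with edgeR 4.0.16 (quasi-likelihood F test, TMM) in R 4.3.3 on genes that reached 0.5 CPM in 2 or more libraries, namely 12500, 12721 and 12445 genes for the naive, CD40L + IL-4 and LPS + IL-4 stages. Each stage was fitted on its 8 libraries, and stages were compared in a fit of all 24 libraries on 13684 genes. P-values were two-sided and Benjamini-Hochberg adjusted over all genes tested. A call needed an adjusted p under 0.15 and, except for the interaction and for differences of effects between stages, a fold over 1.5, as in the study's methods. The interaction was PU.1 SpiB DKO minus PU.1 cKO minus SpiB KO plus control on the log2 scale. The SE is the size of a log2 fold change over the square root of its F statistic.

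Genotypes came from the sample labels. The naive and LPS + IL-4 stages came from the titles, and the CD40L + IL-4 stage from the source name together with the protocol, which was attached to all samples alike. The 2 samples of a group are biological replicates according to the study, and an exact permutation test of 2 against 2 cannot go below p = 0.333, so single values were not tested that way. Rows without a gene symbol (517, with 0.162% of counts) were left out. The replicate numbers paired the LPS + IL-4 libraries, where deviations of same-numbered samples from their group means correlated at 0.386 to 0.514, but not the naive (0.0918 to 0.25) or CD40L + IL-4 (-0.0702 to 0.266) libraries, since pairing required over 0.1 in every pair of groups. Tested on simulated counts for PU.1 cKO against control, the fit recovered 70.2% of 198 changed genes among 12291 genes (naive), 61.8% of 199 among 12526 (CD40L + IL-4) and 84.3% of 198 among 12272 (LPS + IL-4), with 21, 28 and 29 false calls.

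The members and the gene lists were chosen with earlier results of these data known. Besides the 9 members, Spi1 and Spib, the text names, for each pathway list and stage, the genes with the largest rise and fall among those called in PU.1 SpiB DKO without overlap with control, and the 5 genes most correlated with Mapk12 (log2 of CPM + 0.5). Alternatives were DESeq2 1.42.0, its size factors in edgeR, voom in limma 3.58.1, no filter, an adjusted p of 0.05, a replicate block, other sets of libraries in the fit and each library left out.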

Additional observations from a re-analysis of the deposited data

Results flagged for a closer look

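The effect of a genotype against control differed between stages for 6 members, by a test of the difference itself in the fit of all 24 libraries (edgeR, adjusted p under 0.15). All values are differences of log2 effects, positive where the effect was higher at the first stage named. The contrasts of a stage share their control libraries. In PU.1 SpiB DKO, stage cannot be told apart from the extent of Spi1 deletion, which the study describes as incomplete in naive cells. No explanation was tested.

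For Mapk11 the effect of PU.1 SpiB DKO was higher than in naive cells by 1.29 after CD40L + IL-4 (adjusted p = 0.00407) and by 1.69 after LPS + IL-4 (adjusted p = 0.000206), both also without each library in turn. The effect of PU.1 cKO was higher by 0.89 after CD40L + IL-4 than in naive cells (adjusted p = 0.0695), and this was lost without naive control replicate 2, naive PU.1 cKO replicate 1, CD40L + IL-4 control replicate 1 or either CD40L + IL-4 PU.1 cKO library (adjusted p from 0.163 to 0.268). The effect of SpiB KO was higher by 1.05 after LPS + IL-4 than in naive cells (adjusted p = 0.0446), lost without naive control replicate 2, naive SpiB KO replicate 1, LPS + IL-4 control replicate 2 or LPS + IL-4 SpiB KO replicate 1 (adjusted p from 0.154 to 0.270).

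Dusp4 differed in both genotypes with floxed Spi1 and Cre. For PU.1 cKO the effect was higher than in naive cells by 2.16 after CD40L + IL-4 and 1.95 after LPS + IL-4, and for PU.1 SpiB DKO by 1.97 and 1.93 (adjusted p from 0.00520 to 0.0211). All 4 differences were kept without each library in turn, although the CD40L + IL-4 control libraries lay far apart at 17.3 and 48.8 CPM.

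Dusp1 differed by 3.11 for PU.1 cKO between LPS + IL-4 and naive cells (adjusted p = 0.0308), and for PU.1 SpiB DKO by 2.99 between CD40L + IL-4 and naive cells (adjusted p = 0.0155) and 3.75 between LPS + IL-4 and naive cells (adjusted p = 0.00209). These were kept without each library in turn, and their lowest values were 1.86, 1.74 and 2.50.

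Dusp6 differed by 0.99 for PU.1 cKO between LPS + IL-4 and CD40L + IL-4 (adjusted p = 0.0794), a call lost without either CD40L + IL-4 control library, CD40L + IL-4 PU.1 cKO replicate 1, LPS + IL-4 control replicate 2 or LPS + IL-4 PU.1 cKO replicate 1 (adjusted p from 0.159 to 0.375). For PU.1 SpiB DKO it differed by 1.02 between LPS + IL-4 and naive cells (adjusted p = 0.00852) and by 0.77 between the cultures (adjusted p = 0.0538), the latter lost without LPS + IL-4 control replicate 2 (0.45, adjusted p = 0.314).

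Dusp2 differed for PU.1 SpiB DKO by 1.04 between CD40L + IL-4 and naive cells (adjusted p = 0.00396), also without each library in turn. It differed by 0.55 between LPS + IL-4 and naive cells (adjusted p = 0.0840), lost without naive control replicate 1, naive PU.1 SpiB DKO replicate 2, LPS + IL-4 control replicate 2 or either LPS + IL-4 PU.1 SpiB DKO library (adjusted p from 0.168 to 0.285). Between the cultures it differed by -0.48 (adjusted p = 0.141), lost in 7 of 8 cases when a library was left out (adjusted p from 0.176 to 0.337), CD40L + IL-4 control replicate 2 being the exception. Dusp10 differed by 0.87 for PU.1 SpiB DKO between LPS + IL-4 and naive cells (adjusted p = 0.0310), lost without naive control replicate 2 (0.69, adjusted p = 0.153) or LPS + IL-4 control replicate 2 (0.63, adjusted p = 0.187).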

How the results depend on the processing

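With 2 libraries a group, many calls depend on single libraries. Of 62 called member results, 42 were kept under every alternative other than left-out libraries, and 0 changed direction under any. The 62 include 2 results of Mapk12 between stages, which is given above as a description only. Those 2 lend it no support, since its control libraries entered its choice. DESeq2, its size factors in edgeR, no filter and the replicate block each lost 2, voom lost 7, an adjusted p of 0.05 lost 16 of 62, and fitting all 24 libraries at once lost 8 of 24. With all 24 libraries in the fit, the member calls against control after LPS + IL-4 went from 5 to 2, those of PU.1 SpiB DKO against the single mutants from 7 to 3, and interaction calls from 2 to 1. At an adjusted p of 0.05, the calls against the single mutants were 3, the interaction calls 0 and the pathway list calls 50 instead of 77. The interaction gave 1 call with voom and 4 without a filter. With the replicate block, interaction calls went to 5 and differences of genotype effects between stages from 18 to 33. The block lost Mapk11 in naive SpiB KO (-0.58, a fold under 1.5) and Dusp4 between CD40L + IL-4 and naive control cells (adjusted p = 0.230), and gave no other loss of a member call. Where the fit without the block called 0 members, the block called Dusp1 (adjusted p = 0.0859) and Dusp2 (0.0583) for the naive interaction, and Mapk11 (0.0687) and Dusp1 (0.0565) for SpiB KO between CD40L + IL-4 and naive cells. It also called Dusp1 in naive SpiB KO (-1.51, adjusted p = 0.00152) and in naive PU.1 SpiB DKO against SpiB KO (-0.84, adjusted p = 0.0692). The numbers pair the LPS + IL-4 libraries only, and 5 of 6 naive pairs of groups correlated above 0.1. Leaving out 1 library at a time, the member calls were 5 to 7 (naive, 6 with all), 2 to 5 (CD40L + IL-4, 4 with all), 4 to 7 (LPS + IL-4), 5 to 8 (PU.1 SpiB DKO against single mutants), 1 to 4 (interaction), 18 to 21 (stages within control, 20 with all, 2 of them Mapk12), 13 to 23 (effects between stages) and 66 to 88 (pathway lists). The CD40L + IL-4 count was 2 without control replicate 2 or without PU.1 cKO replicate 2. Where 1 library of a group was left, it was assumed to vary like the other groups. The cause of these changes was not tested. Low counts limit Mapk12 in cultured control cells.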
